A study of Homo sapiens with 4 samples.

Results

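The platelet-derived growth factor (PDGF) genes described here were the 2 receptor genes, PDGFRA and PDGFRB, and the 4 ligand genes, PDGFA, PDGFB, PDGFC and PDGFD. They were chosen by symbol as targets of the kinase inhibitor PP121 and their ligands, and they are 6 of the 36601 features in the deposited matrices. PDGF ligands are secreted dimers that pair up receptor tyrosine kinases at the cell surface. The ligands of PDGFA and PDGFC act mainly on the receptor encoded by PDGFRA, that of PDGFB acts on both receptors, and that of PDGFD acts mainly on the receptor encoded by PDGFRB. In the gut, fibroblasts and interstitial cells are known for PDGFRA, and pericytes and other mesenchymal cells for PDGFRB.

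The nuclei came from enteric ganglioids, which are 3D cultures of enteric neurons and their precursors, made from the human embryonic stem cell line H9 and profiled by single-nucleus RNA sequencing (snRNA-seq). The 2 control samples received no PP121, and the 2 PP121 samples were given 2 µM PP121 between days 15 and 20 of the differentiation. The deposited annotation dates replicate 1 of each group to day 42 and replicate 2 to day 38, whereas the study's methods give 1 other day for all samples. Day and differentiation replicate therefore cannot be told apart, and "day 42" and "day 38" below name replicate 1 and replicate 2. All samples derive from 1 cell line, and the labels call the replicates separate differentiations.

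The authors annotated 14812 of the 25306 deposited nuclei, 2912 to 4587 per sample with a median of 6289 to 7071 UMIs per nucleus. These held 23348045 to 34123759 UMIs per sample. The annotated classes were enteric neurons (6557 nuclei), progenitor 1 (2892), progenitor 2 (3800), mesenchymal (903), epithelial (92) and unknown (568). Markers of enteric neurons and of mesenchyme were each highest in the class of that name, with 11 mesenchymal genes summing to 4576 to 5182 counts per 1000000 UMIs (CPM) in mesenchymal nuclei and to at most 477 in each other class. The epithelial label was weakly borne by its markers, since the 3 genes CDH1, EPCAM and KRT19 summed to 30.9 to 59.8 CPM there and to 14.1 to 104 CPM in mesenchymal nuclei. The 7 progenitor genes did not set the progenitor classes apart either. They summed to 1914 to 2434 CPM in progenitor 2, overlapping unknown nuclei (1858 to 2361). In progenitor 1 they summed to 649 to 934 CPM, overlapping mesenchymal (579 to 1164) and epithelial nuclei (721 to 873). Mesenchymal nuclei made up 0.934% of annotated nuclei in control day 42 and 0.719% in PP121 day 42, against 13.5% in control day 38 and 14.5% in PP121 day 38. No more than 8 barcodes were shared between any pair of samples.

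Over all annotated nuclei, PDGFRA was seen in 562 nuclei (1319 UMIs), PDGFRB in 919 (2027), PDGFA in 138 (150), PDGFB in 91 (110), PDGFC in 3859 (8956) and PDGFD in 657 (1543). The genes span 21624 to 256959 bases and it is not stated whether intronic reads were counted, so levels are compared within a gene and not between genes. PDGFA and PDGFB, each in under 1% of annotated nuclei, were close to the limit of detection in most classes.

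PDGFRA lies at chr4:54229293-54298245 on the plus strand and PDGFRB at chr5:150113839-150155845 on the minus strand (RefSeq, GRCh38.p14). The receptor promoters are shown because PDGFRB was highest in mesenchymal nuclei and the receptors differed between days in opposite directions within that class. RefSeq gives PDGFRA a pair of start sites and PDGFRB a single one. Each line holds the 250 bases before a start, 5′ to 3′, with capitals marking CCAAT boxes and E-boxes (CANNTG) found on either strand.
PDGFRA, first start, chr4:54229043-54229292, plus strand: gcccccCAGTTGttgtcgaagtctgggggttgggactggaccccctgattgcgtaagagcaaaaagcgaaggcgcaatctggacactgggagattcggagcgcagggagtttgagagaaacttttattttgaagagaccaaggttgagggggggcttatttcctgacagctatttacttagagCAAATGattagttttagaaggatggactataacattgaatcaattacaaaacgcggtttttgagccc
PDGFRA, second start, chr4:54233710-54233959, plus strand: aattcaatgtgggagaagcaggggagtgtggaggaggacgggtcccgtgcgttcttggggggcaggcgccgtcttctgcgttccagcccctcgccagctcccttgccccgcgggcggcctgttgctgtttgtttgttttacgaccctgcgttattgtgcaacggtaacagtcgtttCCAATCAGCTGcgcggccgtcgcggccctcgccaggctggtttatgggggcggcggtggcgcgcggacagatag
PDGFRB, chr5:150155846-150156095, minus strand: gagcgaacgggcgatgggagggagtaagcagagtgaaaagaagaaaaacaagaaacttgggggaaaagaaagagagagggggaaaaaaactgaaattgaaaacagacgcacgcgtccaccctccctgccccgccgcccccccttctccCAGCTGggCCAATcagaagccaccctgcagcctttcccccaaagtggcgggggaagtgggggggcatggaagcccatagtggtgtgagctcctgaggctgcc
The promoter of the second PDGFRA start and the PDGFRB promoter each held 1 CCAAT and 1 E-box of the same letters, CAGCTG, at most 2 bases apart. Among 35116 RefSeq promoter windows of the same length, 32.0% held CCAAT, 61.8% held CANNTG, and 1.09% held both at most 2 bases apart, searched on both strands. The limit of 2 bases equals the spacing in the PDGFRB window itself, so the 1.09% is a description and not a test. The first PDGFRA start held 2 E-boxes and no CCAAT, and none of the 3 windows held TATAAA, which 10.7% of all windows held. These are matches of letters and not measured binding sites. PDGFA (chr7:497258-520700), PDGFB (chr22:39223359-39244982), PDGFC (chr4:156760454-156971799) and PDGFD (chr11:103907189-104164147) all lie on the minus strand. Reads of PDGFRA could be shared with the read-through gene AC058822.1 on the same strand, and PDGFB, PDGFC and PDGFD are overlapped by antisense genes. Strand use in counting is not stated, so such reads cannot be told apart.

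The levels of the 2 receptors differed between classes. Because the study used both receptor genes among the markers that name the mesenchymal class, their levels across classes are given as a description, without a test. PDGFRB, the receptor of pericytes and other mesenchymal cells, stood at 533 CPM in mesenchymal nuclei of control day 42, 196 in control day 38, 468 in PP121 day 42 and 139 in PP121 day 38. Every one of these values was above every value of the other classes, with epithelial nuclei next at 23.4 to 91.4 CPM. Unknown nuclei held 8.15 to 25.4 CPM, progenitor 2 held 4.29 to 8.14, progenitor 1 held 2.28 to 8.87 and enteric neurons held 1.01 to 3.16. The ranges of epithelial and unknown nuclei overlapped, as did those of both progenitor classes, and that of progenitor 1 overlapped that of enteric neurons.

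PDGFRA, which marks fibroblasts and interstitial cells of the gut, did not have a single level in mesenchymal nuclei. It stood at 22.4 CPM (8 UMIs) in control day 42, 101 CPM (365 UMIs) in control day 38, 3.36 CPM (1 UMI) in PP121 day 42 and 193 CPM (669 UMIs) in PP121 day 38. Both day 38 samples were above both day 42 samples. The mesenchymal range overlapped those of epithelial nuclei (0 to 13.4 CPM), unknown nuclei (0.582 to 16.1) and progenitor 1 (0.758 to 4.13), since the value of PP121 day 42 lay within them. Enteric neurons held 2.14 to 3.25 CPM and progenitor 2 held 0.740 to 2.93, also with overlapping ranges. Of the 36 PDGFRA UMIs in neurons of control day 38, 17 came from 1 nucleus.

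**Figure D1:**
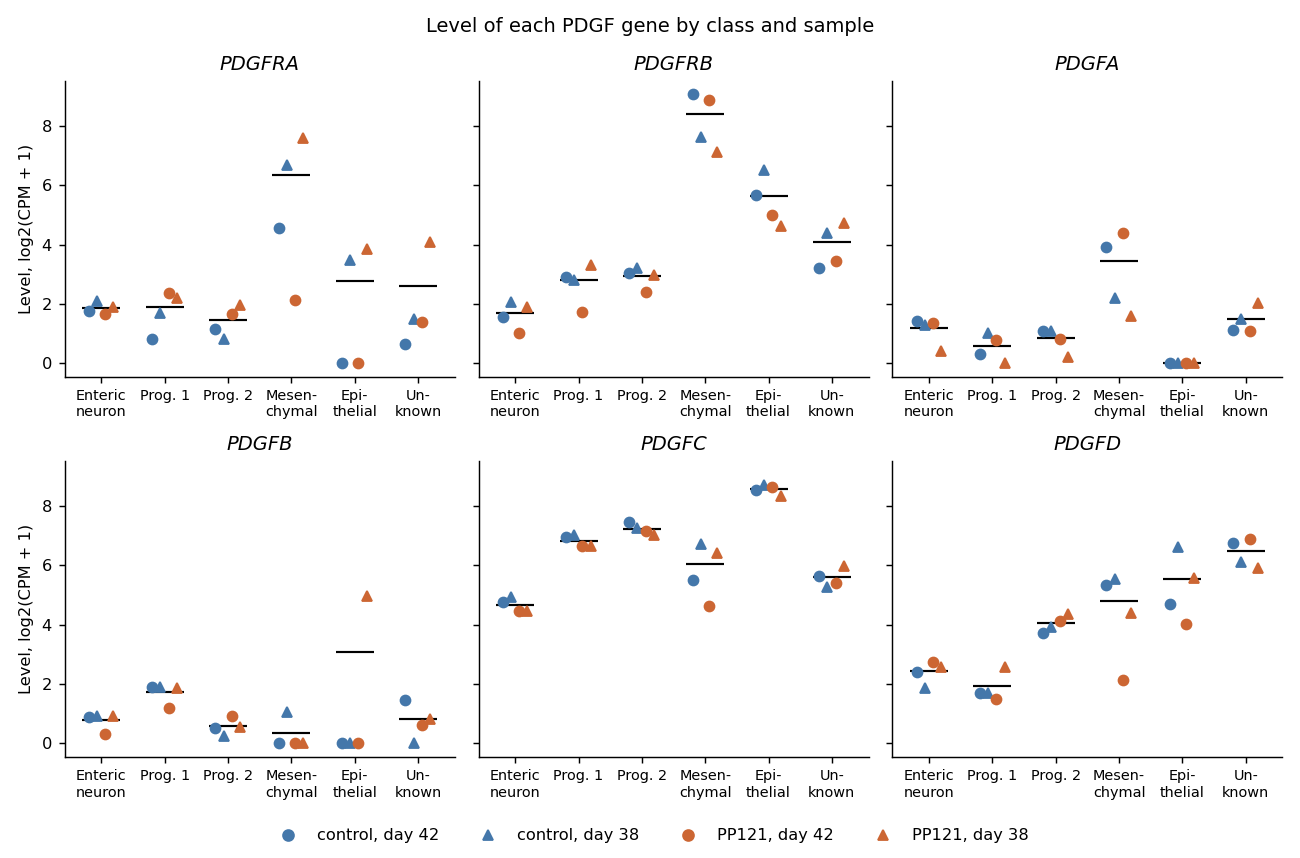
Level of each gene, as log2(CPM + 1), in the 6 annotated classes (Prog. 1 and Prog. 2 are progenitor 1 and 2). Each point is 1 sample, colour gives the treatment, shape gives the day, and the bar is the mean CPM of the 4 samples placed on the same scale. PDGFRB is highest in mesenchymal nuclei in every sample, PDGFC in epithelial nuclei, and the PDGFRA points of mesenchymal nuclei spread from 3.36 to 193 CPM.

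The class that held most of the PDGFRA UMIs differed between days. Enteric neurons held 66.2% of PDGFRA UMIs in control day 42 and 41.9% in PP121 day 42, against 8.63% in control day 38 and 3.21% in PP121 day 38. Mesenchymal nuclei held 11.8% and 1.16% in the day 42 samples, and 87.5% and 89.4% in the day 38 samples. For PDGFRB, mesenchymal nuclei held 55.7% and 61.5% of UMIs on day 42, and 84.3% and 78.2% on day 38. The PDGFRA level over all annotated nuclei was 1.99 CPM in control day 42, 16.8 in control day 38, 2.53 in PP121 day 42 and 32.0 in PP121 day 38. The share of mesenchymal nuclei was also higher in both day 38 samples. Within day 42 it was lower with PP121 (0.719% against 0.934% in control), while the PDGFRA level was higher. Its part in the PDGFRA level was not tested.

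**Figure D2:**
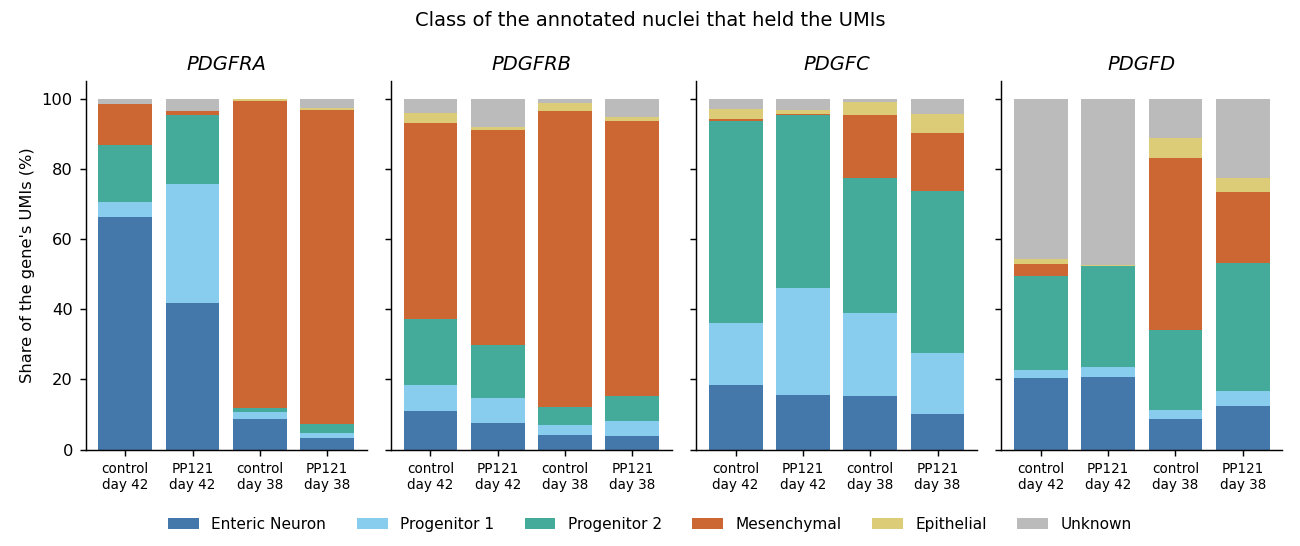
Share of the UMIs of PDGFRA, PDGFRB, PDGFC and PDGFD (y axis, percent of the gene's UMIs in annotated nuclei) held by each class, 1 bar per sample. For PDGFRA the mesenchymal part is 11.8% and 1.16% in the day 42 samples and 87.5% and 89.4% in the day 38 samples, while PDGFC UMIs lie mostly in progenitors in all 4 samples.

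Within mesenchymal nuclei, the receptors differed between days in opposite directions. PDGFRA was lower on day 42, with a log2 difference of −3.38 ± 0.58 (SE, n = 2 samples per day; adjusted p = 0.0149 by edgeR's quasi-likelihood test with Benjamini-Hochberg adjustment). PDGFRA passed the filter on low counts only with the day 38 samples, in which it was high, since day 42 held 8 and 1 UMIs. Its call is therefore read as a description. PDGFRB was higher on day 42, with a log2 difference of 1.63 ± 0.26 (adjusted p = 0.0116, edgeR). In this comparison 277 of 14387 genes passed the test (1.93%), 131 of them higher (0.911%) and 146 lower (1.01%) on day 42, and of the 6 PDGF genes 5 were tested and 2 passed. The values of the 2 days did not overlap for either receptor, a pattern that 18.5% of tested genes showed in the direction of PDGFRB and 25.6% in that of PDGFRA. With 1 sample left out both were still called, in fits where the lone sample of a day is assumed to vary like the pair of the other day. Both calls were lost when the 5% of nuclei with the highest doublet scores were removed (PDGFRA −3.95, adjusted p = 0.0773; PDGFRB 1.57, adjusted p = 0.0717, edgeR) and without a filter on low counts (adjusted p = 0.221 and 0.200). The day 42 values rest on 40 control and 33 PP121 nuclei.

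The share of nuclei with a UMI gave the same order for PDGFRA. With each nucleus thinned to 2000 UMIs, PDGFRA was seen in 5% of mesenchymal nuclei in control day 42, 15.3% in control day 38, 0 of 33 nuclei in PP121 day 42 (which allows a share of up to 9.09%) and 24.3% in PP121 day 38. Without thinning the shares were 15%, 35.0%, 3.03% and 53.8%. PDGFRB was seen in 60%, 26.2%, 30.3% and 21.2% of thinned nuclei in the same order, and in 80%, 54.9%, 63.6% and 51.7% without thinning. In enteric neurons, where free RNA would also be counted, thinned shares were 0.593% to 0.821% for PDGFRA and 0.218% to 0.719% for PDGFRB. Median depths were 7227 to 8401 UMIs in mesenchymal nuclei and 7210 to 8102 in neurons. Few nuclei weighed heavily on day 42, since the 3 nuclei with most PDGFRB UMIs held 28.4% of them in control day 42 and 51.8% in PP121 day 42, against 8.18% and 6.82% in the day 38 samples.

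The 2 receptors were seldom seen in the same mesenchymal nucleus at this depth. After thinning, 42 of 898 mesenchymal nuclei held UMIs of both (4.68%, 95% Clopper-Pearson interval 3.39 to 6.27), 124 held PDGFRA alone and 187 held PDGFRB alone. Without thinning 223 of 903 held both (24.7%), so the count depends on depth. On day 38 the share of nuclei with PDGFRB was 25.8% among control nuclei with PDGFRA and 26.2% among those without, and 23.5% and 20.4% in PP121 nuclei. Thinned neurons and progenitors held no nucleus with both receptors, and all such intervals cover counting error only.

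**Figure D3:**
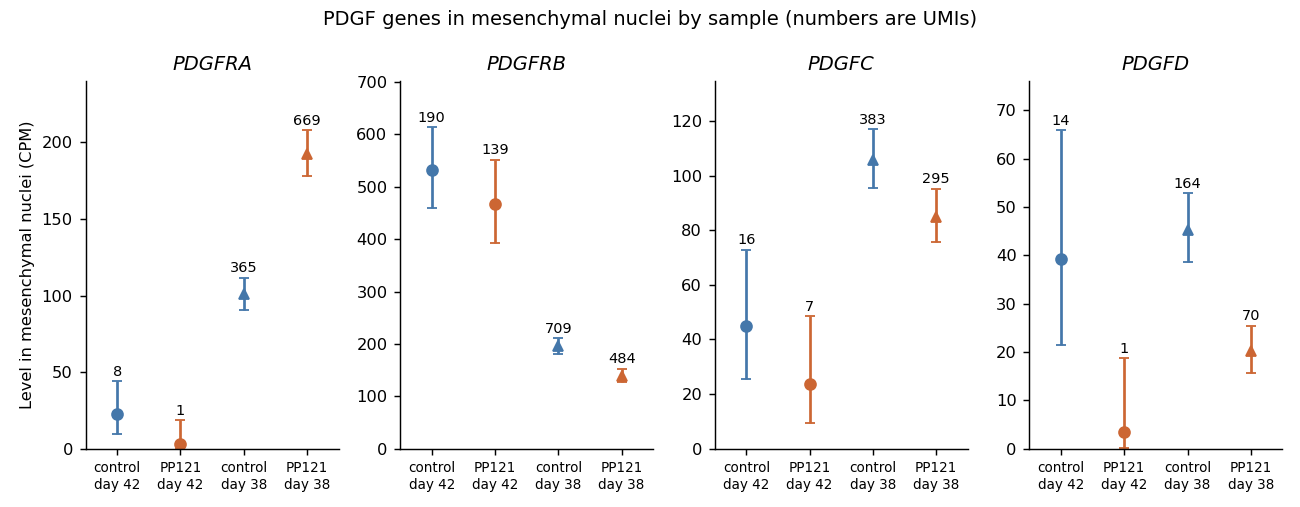
Level in mesenchymal nuclei (CPM, linear axes that start at 0) of both receptors and of PDGFC and PDGFD, 1 point per sample with its 95% Poisson interval for counting error, and the number of UMIs above it. PDGFRA is low and PDGFRB high in both day 42 samples, and the PDGFD values of the PP121 samples (1 and 70 UMIs) are below those of the control samples (14 and 164 UMIs).

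Some marker lists also separated the days in mesenchymal nuclei, and others overlapped. The 11 mesenchymal genes summed to 4630 and 4619 CPM on day 42 and to 4576 and 5182 CPM on day 38 (control, then PP121). A list of fibroblast genes summed to 751 and 707 CPM on day 42 and to 495 and 312 CPM on day 38, and a pericyte list to 129 and 97.6 against 94.0 and 82.1 CPM. An endothelium list summed to 33.6 CPM in both day 42 samples (12 and 10 UMIs) and to 11.3 and 11.5 CPM on day 38, and the 3 epithelial genes to 104 and 37.0 against 27.4 and 14.1 CPM. The fibroblast, pericyte, endothelium and epithelial lists were thus higher in both day 42 samples, as PDGFRB was, while the mesenchymal list overlapped. The neuron list, at 530 and 1050 CPM on day 42 and 707 and 1291 CPM on day 38, overlapped between days, as did lists of progenitor, glia and smooth muscle genes. Between classes the fibroblast list was highest in mesenchymal nuclei, at 312 to 751 CPM against at most 60.2 in each other class. The pericyte list there, at 82.1 to 129 CPM, overlapped epithelial nuclei (84.7 to 92.8) and progenitor 2 (70.1 to 101). A list of 3 genes of gut PDGFRA-positive interstitial cells summed to 13.5 to 39.2 CPM in mesenchymal nuclei. It was higher in progenitor 2 (46.9 to 65.1), epithelial (50.2 to 86.3) and unknown nuclei (76.9 to 103). The part of these lists in the receptor differences was not tested.

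In neurons PDGFRB was not higher on day 42. PDGFRB in neurons was 1.95 CPM in control day 42, 3.16 in control day 38, 1.01 in PP121 day 42 and 2.74 in PP121 day 38. It was thus lower in both day 42 samples, as were 14.2% of the genes tested. The log2 difference of −1.04 ± 0.40 was not called (adjusted p = 0.664, edgeR), and no gene passed (0%). An unadjusted p under 0.05 was found for 1 of the 6 PDGF genes and for 1574 of the 21243 genes tested. In progenitors no PDGF gene passed between days either (0% of genes, edgeR). There 0 of the 5 tested had an unadjusted p under 0.05, against 2248 of all 20260 genes tested. DESeq2 called no PDGF gene in neurons (0.278% of genes called) or progenitors (0.538%), and neither did edgeR with treatment as a term (9.49% and 2.99%). The day contrasts of mesenchymal nuclei and neurons were also compared, a comparison chosen after the data were seen. The fit had no sample term, so both sums of a sample were treated as independent. It called 50 of 20218 genes (0.247%). The difference between the contrasts was 2.58 ± 0.43 for PDGFRB (adjusted p = 0.0474, edgeR), against a median of −0.12 over all genes. For PDGFRA it was −2.99 ± 0.72 and was not called (adjusted p = 0.167, edgeR), but it was called with DESeq2 (adjusted p = 0.0159, 1.25% of genes called) and by edgeR without control day 38 (adjusted p = 0.00108). The PDGFRB call was lost without control day 42 (adjusted p = 0.293) or without PP121 day 42 (adjusted p = 0.342, edgeR).

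PDGFC, which encodes a ligand that must be cut by proteases such as tissue plasminogen activator before it can act, was seen in all classes. Its level in epithelial nuclei was 374 CPM in control day 42, 416 in control day 38, 402 in PP121 day 42 and 325 in PP121 day 38. These values were above those of every other class, with no overlap. Progenitor 2 followed at 174, 153, 143 and 128 CPM and progenitor 1 at 122, 129, 99.1 and 101 CPM, and these ranges touched each other only narrowly. Mesenchymal nuclei held 44.8, 106, 23.6 and 85.0 CPM, and unknown nuclei 37.8 to 61.5 CPM. Enteric neurons, at 26.3, 29.4, 21.3 and 21.0 CPM, were below epithelial, progenitor and unknown nuclei in every sample, but PP121 day 42 mesenchymal nuclei lay within their range.

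PDGFD, whose ligand is also released by proteolysis and acts mainly on the receptor encoded by PDGFRB, had its highest mean in unknown nuclei. It stood there at 108 CPM in control day 42, 68.5 in control day 38, 119 in PP121 day 42 and 60.0 in PP121 day 38. Epithelial nuclei held 24.9, 96.4, 15.5 and 46.9 CPM, from only 5, 19, 1 and 14 UMIs, and 10 of the 19 came from 1 nucleus. Mesenchymal nuclei held 39.2, 45.3, 3.36 and 20.2 CPM, from 14, 164, 1 and 70 UMIs. The epithelial range overlapped those of unknown and mesenchymal nuclei, but the ranges of unknown and mesenchymal nuclei did not overlap. Both the epithelial and the mesenchymal range also overlapped that of progenitor 2. The PP121 day 42 mesenchymal value, from 1 UMI, lay within the ranges of enteric neurons and progenitor 1. Progenitor 2 held 12.2 to 19.5 CPM, above both enteric neurons (2.62 to 5.64 CPM) and progenitor 1 (1.85 to 4.93 CPM) without overlap.

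PDGFA and PDGFB, the ligands that are made without the inhibiting domain of PDGFC and PDGFD, were sparse. PDGFA had its highest mean in mesenchymal nuclei, at 14.0 CPM (5 UMIs) in control day 42, 3.59 (13 UMIs) in control day 38, 20.2 (6 UMIs) in PP121 day 42 and 2.02 (7 UMIs) in PP121 day 38. Both day 42 values were above both day 38 values, as for 18.5% of the genes tested. PDGFA passed the filter on low counts only through the day 42 samples, in which it was high, so its log2 difference of 2.61 ± 0.68 between days is given as a description. PDGFC in mesenchymal nuclei went the other way, −1.40 ± 0.38 on day 42 (adjusted p = 0.110, edgeR). With treatment as a term in the fit, 632 genes (4.39%) and 4 PDGF genes passed between days, PDGFC (−1.44, adjusted p = 0.0189) and PDGFA, with the same limit on its filter, besides both receptors. PDGFB was seen in neurons with 16, 10, 4 and 8 UMIs and in progenitor 1 with 11, 11, 9 and 8 UMIs. Its highest mean level, in epithelial nuclei, came from 9 UMIs of 1 sample, PP121 day 38, and the other samples held none.

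The question of the treatment was whether PP121 changed these genes in each class. With 2 samples per group, no PDGF gene passed the test in all annotated nuclei (0% of 24123 genes called), enteric neurons (0% of 21243), progenitors 1 and 2 combined (0% of 20260) or mesenchymal nuclei (0% of 14387; edgeR). With the replicate as a block 0.883%, 14.8%, 1.72% and 0.452% of genes were called in these 4 comparisons, and again no PDGF gene. DESeq2 called none either. By edgeR without the block, an unadjusted p under 0.05 was found for 1 PDGF gene in progenitors (PDGFRA), for 1 in mesenchymal nuclei (PDGFD) and for 0 in neurons and in all nuclei. Among all genes tested, 962, 222, 2549 and 1113 had such a p there, in the same order.

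The PDGFC level in neurons was lower in the PP121 sample of each day, but the difference was not called. Control neurons held 27.8 ± 2.21 CPM (SD, n = 2) and PP121 neurons 21.1 ± 0.178 CPM (SD, n = 2). Both PP121 values lay below both control values, as they did for 25.4% of the genes tested. The log2 difference of −0.36 ± 0.15 was not called (adjusted p = 0.417, edgeR), nor with the replicate as a block (−0.35 ± 0.13, adjusted p = 0.0801, edgeR). In progenitors PDGFC stood at 158 CPM in control day 42, 143 in control day 38, 122 in PP121 day 42 and 120 in PP121 day 38. The values of the groups again did not overlap, a pattern of 12.9% of genes, and the log2 difference was −0.32 ± 0.19 (adjusted p = 1.00, edgeR). Among nuclei thinned to 2000 UMIs, PDGFC was seen in a mean of 4.24% of control and 3.20% of PP121 neurons, and in 22.4% and 17.5% of progenitors. An exact permutation test of 2 against 2 samples cannot go below p = 0.333, which was its value for neurons.

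Within a day, the PP121 to control ratio of PDGFC was 0.809 (95% interval 0.705 to 0.929) on day 42 and 0.715 (0.593 to 0.859) on day 38 in neurons. It was 0.810 and 0.784 in progenitor 1, and 0.820 and 0.838 in progenitor 2. These ratios compare pairs of samples, and their intervals cover counting error only. Over the 6 classes and 2 days, 10 of 12 ratios were below 1, of which 7 had an interval below 1, and of the 2 above 1 none had an interval above it. The exceptions were epithelial nuclei on day 42 (1.08) and unknown nuclei on day 38 (1.62).

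**Figure D4:**
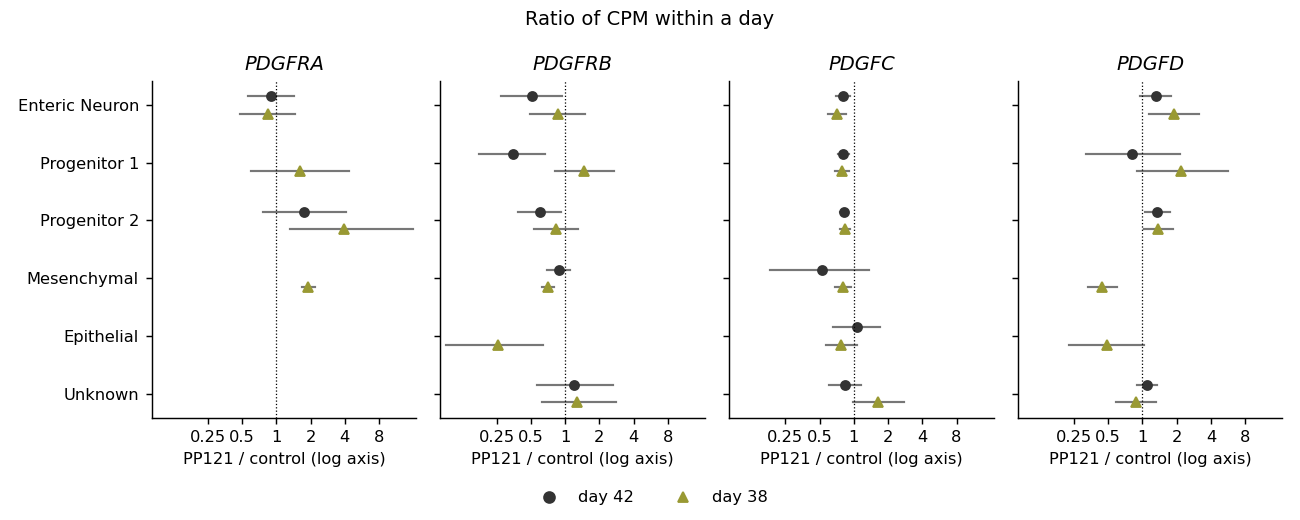
PP121 to control ratio of CPM within each day (x axis, log scale, 1 marked by the dotted line) in each class, with the 95% interval for counting error, for pairs with more than 3 UMIs in both samples. For PDGFC 10 of 12 ratios lie below 1, and for PDGFRB 8 of 11.

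PDGFRA in progenitors had the smallest unadjusted p of the receptor comparisons under PP121. It stood at 1.09 CPM (14 UMIs) in control day 42, 1.38 (13 UMIs) in control day 38, 3.08 (46 UMIs) in PP121 day 42 and 3.15 (30 UMIs) in PP121 day 38. Of the 46 UMIs of PP121 day 42, 13 came from 1 nucleus, and without it the level there was 2.21 CPM. Both PP121 values were above both control values, as for 15.7% of the genes tested. The log2 difference was 1.33 ± 0.43 (adjusted p = 0.827, edgeR). The share of progenitors with PDGFRA did not separate the groups when thinned to 2000 UMIs. It was 0.116% in control day 42, 0.625% in control day 38, 0.440% in PP121 day 42 and 0.148% in PP121 day 38. These shares rest on 2, 8, 10 and 2 nuclei. Without thinning the groups were apart, at 0.632% and 0.852% in control against 1.13% and 1.55% in PP121. Thinned to 1000 UMIs they were also apart, with means of 0.116% and 0.451%. In neurons the PDGFRA difference was −0.17 ± 0.36 (adjusted p = 0.871, edgeR). The difference between the PP121 contrasts of progenitors and neurons was 1.50 ± 0.51 for PDGFRA (adjusted p = 1.00, edgeR). No gene of 21787 was called there with or without the block (0%). Without the block, an unadjusted p under 0.05 was found for 1 of the 6 PDGF genes and for 709 of all genes. In mesenchymal nuclei PDGFRA had a within-day ratio of 1.91 (95% interval 1.68 to 2.18) on day 38 and of 0.150 (0.00338 to 1.12) on day 42, where it rests on 8 and 1 UMIs.

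PDGFRB was not called under PP121 in the classes tested, with log2 differences of −0.47 ± 0.56 in neurons, −0.42 ± 0.40 in progenitors and −0.31 ± 0.66 in mesenchymal nuclei. Its within-day ratios were below 1 in 8 of 11 pairs, 5 of them with an interval below 1, and none of the 3 above 1 had an interval above it. The 2 ratios in mesenchymal nuclei were 0.878 on day 42 and 0.711 on day 38.

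The PP121 values of PDGFD lay below control in mesenchymal nuclei and above it in neurons, and neither difference was called. In mesenchymal nuclei both PP121 values (3.36 and 20.2 CPM) were below both control values (39.2 and 45.3 CPM), as for 14.3% of the genes tested. The log2 difference was −1.47 ± 0.56 (adjusted p = 1.00, edgeR). The PP121 day 42 value was 1 UMI. Of the 14 UMIs of control day 42, 9 came from 1 nucleus. Without that nucleus the level there was 14.6 CPM, below that of PP121 day 38, so the separation rested on it. In neurons PDGFD stood at 4.33 CPM in control day 42, 2.62 in control day 38, 5.64 in PP121 day 42 and 4.91 in PP121 day 38. Both PP121 values were here above both control values, as for 19.7% of genes, and the log2 difference was 0.63 ± 0.31 (adjusted p = 0.469, edgeR). Progenitors held 9.15, 9.05, 9.63 and 14.8 CPM, with a log2 difference of 0.42 ± 0.30. No test compared mesenchymal nuclei with neurons in this respect.

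**Figure D5:**
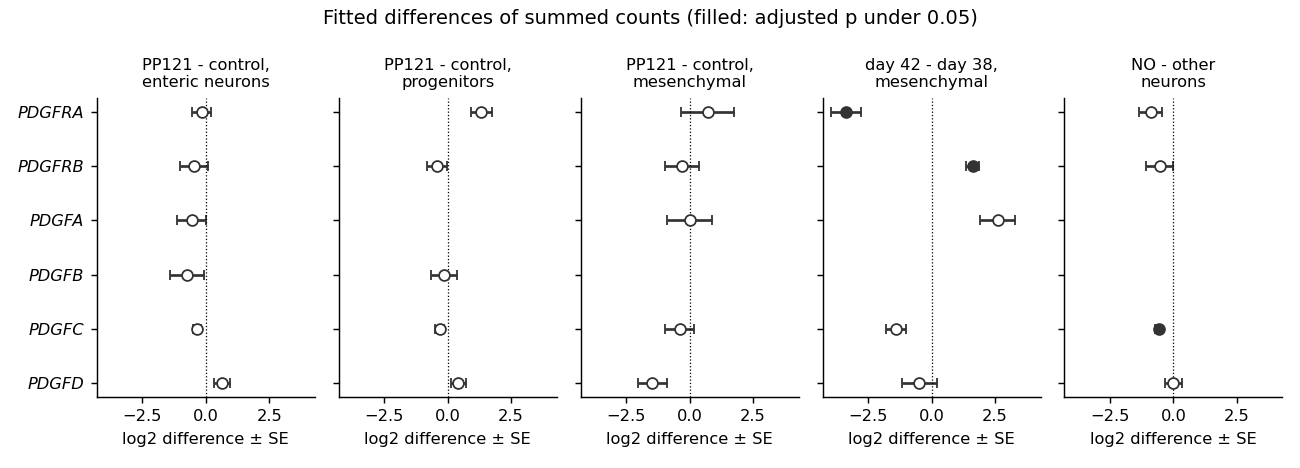
Fitted log2 difference (x axis, ± SE) of each PDGF gene that passed the filter in 5 comparisons of counts summed per sample (n = 2 samples per group, or 4 samples for nitrergic neurons). Filled points passed an adjusted p of 0.05, which were PDGFRA and PDGFRB between days in mesenchymal nuclei and PDGFC in nitrergic neurons.

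Nitrergic (NO) neurons, the inhibitory motor neurons that make nitric oxide, numbered 1128 of the 6557 neurons by the authors' annotation. PDGFC stood at 16.1 CPM in NO neurons of control day 42, 22.3 in control day 38, 12.6 in PP121 day 42 and 19.7 in PP121 day 38, against 28.8, 30.9, 23.2 and 21.2 CPM in the other neurons. It was lower in NO neurons in 4 of 4 samples, as were 22.2% of the genes tested. The log2 difference of −0.59 ± 0.15 with the sample as a block passed the test (adjusted p = 0.0238, edgeR), as did 2324 of 17909 genes (13%), 876 of them lower (4.89%). It was the only PDGF gene called of 4 tested. The call was lost with DESeq2 (adjusted p = 0.0615), with no sample block (0.179), with NO neurons taken as those with a NOS1 UMI (0.985), and without control day 42 (0.147), control day 38 (0.0711) or PP121 day 42 (0.142). PDGFRA (−0.89 ± 0.45), PDGFRB (−0.54 ± 0.54) and PDGFD (−0.0021 ± 0.32) were not called, and PDGFA and PDGFB did not pass the filter on low counts.

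Genes that act with the PDGF genes were described as 3 lists, of ligand processing and binding (11 genes), signal relay (16) and the other class III receptors and their ligands (7). Under PP121 none of the 34 that were tested was called in all nuclei, neurons, progenitors or mesenchymal nuclei by edgeR without a block. With the replicate as a block 4 were higher in PP121 neurons, to be read against 7.97% of all genes tested called higher there. The 4 were PCSK6, a protease that can cut growth factor precursors (0.76 ± 0.16, adjusted p = 0.00181, edgeR), and NRP1, a co-receptor (0.48 ± 0.12, adjusted p = 0.00784, edgeR). The adaptors NCK2 (0.50 ± 0.11, adjusted p = 0.00268) and GAB1 (0.33 ± 0.11, adjusted p = 0.0338, edgeR) were the others. The median log2 difference without the block was 0.23 for the ligand processing list, 0.13 for the relay list and −0.030 for the other class III receptors and ligands, against −0.0022 over all genes.

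Between days in mesenchymal nuclei PCSK5, another such protease, was called. It stood at 39.2 CPM in control day 42, 124 in control day 38, 40.4 in PP121 day 42 and 364 in PP121 day 38. It was lower on day 42 by a log2 difference of −2.58 ± 0.52 (adjusted p = 0.0301, edgeR), the direction of PDGFRA, and it was the only one called of the 9, 16 and 5 genes of these lists that were tested, against 1.93% of all genes. In NO neurons KIT, a class III receptor related to the PDGF receptors, was lower by −1.21 ± 0.19 (adjusted p = 0.00094, edgeR) and GAB1 by −0.40 ± 0.10 (adjusted p = 0.0205, edgeR), where 4.89% of all genes were called lower. KIT stood at 4.64 to 7.11 CPM in NO neurons and at 12.0 to 16.5 CPM in the other neurons, without overlap.

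The genes whose log levels followed each PDGF gene most closely were found over 19 sums of a class in a sample, out of 13812 genes. These correlations are a description, since the sums share samples and depth. PDGFRB was most like C9 (Pearson r = 0.98), SPARC, a matrix protein that binds PDGF, HAS2, which makes hyaluronan, and ZCCHC24. PDGFC was most like CELSR1 (r = 0.96), PAWR and NECTIN3, an adhesion protein, and PDGFD was most like PDE8B (r = 0.93), MARC2 and AL158195.1. PDGFRA was most like AL024497.2 (r = 0.88), DAAM2, KANK4 and AC062004.1. For PDGFA the likeness rested on 2 sums at or above 10 CPM, and PDGFB had no gene named.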

How the data were processed

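Nuclei of 2 control and 2 PP121 samples of H9 ganglioids were analysed from 1 deposited matrix and 1 annotation table per sample. The authors deposited UMI counts per gene and nucleus from 10x 3′ libraries. The study's methods name kallisto and bustools with hashtag demultiplexing, and the submitters' processing notes name Cell Ranger, Seurat 4.0.4 and GRCh38. Whether intronic reads or strand were counted is not given in the sources used here. Every value was whole. Where a further deposited name column went against the labels, in both control samples, the labels were used. Classes and nitrergic identity were taken as deposited, and nuclei annotated as filtered were left out.

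Counts were summed per class and sample and scaled to counts per 1000000 UMIs (CPM). Groups were compared with edgeR 4.0.16 (quasi-likelihood test, two-sided, TMM, edgeR's filter on low counts, Benjamini-Hochberg adjustment over all genes, threshold 0.05), with DESeq2 1.42.0 as an alternative. The edgeR fits were tested on simulated data, and those of DESeq2 were not. The labels' replicate numbers mark the annotated day and pair the samples. Same-numbered samples deviated together, with r = 0.532 over genes for all nuclei, 0.421 for neurons, 0.284 for progenitors and 0.276 for mesenchymal nuclei. Shares of nuclei were thinned to 2000 UMIs and have Clopper-Pearson intervals at 95%, and CPM have Poisson intervals, all for counting error only. The limit for a count of 0 is 3 counts. With 2 samples per group, p-values measure the spread between the samples of a group, all of 1 line. Without a block, samples of a treatment differ in day and replicate, and samples of a day differ in treatment. For NO neurons, with the sample as a block, p-values measure the spread of the NO difference over the 4 samples. Where the contrasts of a pair of classes were compared, the fits had no sample term and treated both sums of a sample as independent. The doublet caller Scrublet marked 2 of 14812 nuclei (0.0135%) and was not used for removal, so the 5% of nuclei with the highest scores were left out as an alternative. Alternatives also covered filters, the replicate block, other neuron definitions and leaving out each sample. All 6 genes are described, the listed pathway genes are named where they passed a test, and the 4 genes of closest likeness are those with the highest Pearson correlation of log levels over sums of at least 20 nuclei. The members and lists were chosen with earlier results of these data known.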

Additional observations from a re-analysis of the deposited data

Results flagged for a closer look

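A pair of results met a rule for a closer look. The day 42 to day 38 difference of PDGFRB was not the same in mesenchymal nuclei and neurons. PDGFRB was 1.63 higher on the log2 scale on day 42 in mesenchymal nuclei, and −1.04 in neurons, and the difference between these contrasts was 2.58 ± 0.43 (adjusted p = 0.0474, edgeR). That fit treated the mesenchymal and neuron sums of a sample as independent, with no sample term. The mesenchymal value of day 42 rests on 40 and 33 nuclei, and the call was lost without either of these samples.

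PDGFD was seen in nuclei outside the comparisons, the 10494 that the authors labelled as filtered for low quality and gave no class. Its level there was 7.06 CPM in control day 42, 11.0 in control day 38, 19.3 in PP121 day 42 and 15.9 in PP121 day 38, so the PP121 mean of 17.6 CPM was above both control samples. The share of genes with that pattern in these nuclei was not counted, and the difference is given as a description. These nuclei were shallow, with a median of 666 to 822.5 UMIs. The mesenchymal marker list summed there to 196, 356, 226 and 819 CPM in the same order, and the neuron list to 5095, 4176, 6139 and 4136 CPM. Their part in the PDGFD values was not tested.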

How the results depend on the processing

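Of 316 alternative values of the PDGF genes, 272 kept their direction and their side of the threshold, 23 changed direction, 9 gained and 12 lost a call. Under PP121, the replicate block called no PDGF gene (0) in its own 4 comparisons. With the block, 1 was called over all nuclei once the highest doublet scores were left out (PDGFRA 0.77, adjusted p = 0.0385, edgeR). In that fit 663 of 23713 genes were called. With the block, 1 was also called in all deposited nuclei, those filtered for low quality included (PDGFRA 0.83, adjusted p = 0.0115, edgeR). There 1376 of 25004 genes were called. Between days in mesenchymal nuclei the number of PDGF genes called went from 2 to 0 without a filter and 0 without the highest doublet scores. It went to 1 with at least 10 counts in every sum, where PDGFRB alone was tested and 256 of 5455 genes were called. With treatment as a term it went to 4, where 632 of 14387 genes were called. With 1 sample left out, the log2 difference there ran from −5.42 to −2.66 for PDGFRA and from 1.45 to 1.90 for PDGFRB. In NO neurons the number of PDGF genes called went from 1 to 0 with DESeq2 (1736 of 17909 genes called). It went to 0 with no sample block (685 of 17909 genes) and 0 by NOS1 UMIs (70 of 17085 genes). It was 0 to 1 with 1 sample left out, where 1215 to 2356 genes were called. The share of nuclei with both receptors went from 4.68% to 24.7% without thinning.

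Directions changed in differences that were not called. Under PP121 these were PDGFRA in neurons pooled with progenitors (0.40, and 0.41 with the replicate block), PDGFRA in mesenchymal nuclei with DESeq2 and the block (−0.0094), and PDGFA there with DESeq2 (0.25) or no filter (0.0021). PDGFD in NO neurons turned to 0.057 with no sample block and to 1.18 by NOS1 UMIs. With 1 sample left out, the PP121 log2 difference ran from −1.93 to 3.19 for PDGFRA over all nuclei, in neurons from −0.42 to 0.096 for PDGFRA, −1.29 to 0.20 for PDGFRB and −1.82 to 0.14 for PDGFB, and in progenitors from −1.14 to 0.12 for PDGFRB. In mesenchymal nuclei it ran from −4.27 to 2.18 for PDGFRA, −1.40 to 0.60 for PDGFRB, −1.66 to 0.80 for PDGFA and −1.73 to 0.33 for PDGFC. PDGFD ran from −3.26 to 0.30 between days in mesenchymal nuclei and from −0.28 to 0.25 in NO neurons. The causes were not tested.

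Over all genes, DESeq2 called 49, 87, 40 and 0 genes under PP121 in all nuclei, neurons, progenitors and mesenchymal nuclei, no filter 1, 69, 270 and 40, and the replicate block 213, 3152, 349 and 65, against 0 in each. At an unadjusted p under 0.05 there were 1113, 2549, 962 and 222. Between days in mesenchymal nuclei 7 genes were called without the highest doublet scores and 2 without a filter, against 277. Low UMI counts limit PDGFA, PDGFB and all day 42 mesenchymal values.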
